A study of Homo sapiens with 14 samples.

Results

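The genes described here are 36 ribosome biogenesis and nucleolar factors, taken by symbol from a fixed list drawn up for this work. The rule uses no measured value, though earlier results of these data were known when the list was made. All 36 symbols were found among the 26171 entries of the K562 table and among the 19196 entries of the SIGM5 table. All 36 also passed the filters on low values in both lines. By role, 5 belong to RNA polymerase I and its initiation machinery, 4 to box C/D and 4 to box H/ACA small nucleolar ribonucleoproteins (snoRNPs), 5 are general nucleolar proteins, 7 act in small-subunit assembly and 11 in large-subunit assembly.

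The study asked how a TET-dioxygenase inhibitor, TETi76, alters the mRNA of leukaemia cells that differ in TET2, one of the enzymes that oxidise 5-methylcytosine. Polyadenylated RNA was sequenced from 14 libraries, 2 in each of 7 groups. Cells of SIGM5, a line from acute myeloid leukaemia, received DMSO (the solvent) or 12.5 µM TETi76. K562, an erythroleukaemia line, was used as isogenic lines named K01 and K18. Line K01 carries no genotype in its labels, and the series text names TET2+/+ cells beside TET2-/- ones. It received DMSO, 12.5 µM TETi76, 100 µM ascorbate (vitamin C, a cofactor of the TET enzymes), or TETi76 together with ascorbate. Line K18, whose libraries are labelled TET2-/-, received DMSO only, and all treatments lasted 24 h. Each genotype was 1 such line, so genotype and line cannot be told apart. The labels number the replicates without saying whether they were separate cultures, so the p-values rest on differences among libraries and may reflect technical spread alone.

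Ribosomes are built in the nucleolus. RNA polymerase I transcribes the ribosomal RNA precursor, snoRNPs guide its methylation and pseudouridylation, and successive assembly factors fold, cut and export the precursors of the small and the large subunit. Dividing leukaemia cells spend much of their transcription and translation on this pathway, and many of its genes are known targets of MYC, a transcription factor that binds the E-box CACGTG.

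SIGM5 libraries held 18893636 to 23639198 counts. The K562 table gives no totals. The number of reads in each K562 library, relative to K01 DMSO replicate 1, ran from 0.722 to 0.969 for the other libraries except TETi76 with ascorbate replicate 1, at 0.525, the shallowest. Replicates correlated at 0.976 or more on the log2 scale in all 7 groups. The labelled lines carried their markers. In K562, 8 of 8 erythroid markers had a mean of at least 1 FPKM, with a summed level of 3787 to 9109 FPKM. There 4 of 8 myeloid markers did too, with a summed level of 44.55 to 73.09 FPKM. Of 5 markers of other cell types, 2 in each line had a mean of at least 1. These 5 summed to 24.81 to 52.55 FPKM in K562 and to 25.72 to 31.97 CPM in SIGM5. In SIGM5, 8 of 8 myeloid markers had a mean of at least 1 CPM, 1 of 8 erythroid markers did (TFRC), and the globins HBG1, HBG2 and HBE1 were at 0. TET2 mRNA was 1.99 and 2.40 FPKM in the K01 DMSO libraries and 3.31 and 2.95 FPKM in those labelled TET2-/-. The labels do not say which part of TET2 was altered in K18, so this level does not check the genotype. In bulk RNA such as this, fewer cells with a transcript and less of it per cell cannot be told apart.

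Promoter sequence is described first, because the E-box is the element this gene class is best known for. It was read after the calls given below had been made. RefSeq promoters, running from 250 bases before to 50 bases after the start of transcription on GRCh38.p14, were matched for 29 of the 36 genes. Those not matched were RRP12, RRS1, RRP1B, BOP1, NOP58, NOLC1 and POLR1E. The letters CACGTG, which read the same on both strands, occurred in 13 of the 29 promoters (44.8%), against 8.77% of all 27305 genes in the table. The ETS core CCGGAAGT, on either strand, occurred in 7 of 29 (24.1%) against 4.95%. These are letter matches and not measured binding. The 27305 genes were not limited to those expressed in these cells, whereas the 29 all passed the filters on low values. Of the 29 genes matched, 18 changed in at least 1 K562 comparison below, and of the 13 with an E-box, 7 did. The 30 bases around the E-box are shown 5′ to 3′ on each gene's own strand, with the E-box in capitals, for 6 such genes whose window lies wholly inside the promoter and for UTP20 and NOP10, which were called in none of the K562 comparisons.
FBL: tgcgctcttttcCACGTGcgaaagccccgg
GAR1: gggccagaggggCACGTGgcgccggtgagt
DDX21: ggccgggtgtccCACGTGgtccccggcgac
LYAR: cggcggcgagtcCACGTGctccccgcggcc
NOP14: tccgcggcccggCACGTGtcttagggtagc
PES1: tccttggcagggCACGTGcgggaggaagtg
UTP20: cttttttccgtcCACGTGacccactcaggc
NOP10: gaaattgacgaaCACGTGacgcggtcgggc
The FBL window lies at chr19:39846356-39846385 on the minus strand, just after the start. That of GAR1 lies at chr4:109815781-109815810 on the plus strand, after the start, and that of DDX21 at chr10:68956604-68956633 on the plus strand, before the start. LYAR (chr4:4290068-4290097, before the start), NOP14 (chr4:2963374-2963403, after it) and PES1 (chr22:30591880-30591909, after it) read from the minus strand. UTP20 (chr12:101280083-101280112, plus strand) and NOP10 (chr15:34343130-34343159, minus strand) carry theirs before the start. A second E-box of NOP10 is not shown.

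Before treatment the 36 genes covered a wide range of expression in K562. Levels per gene length (FPKM) in K01 DMSO ran from 1372 ± 78.7 (SD, n = 2) for NPM1, nucleophosmin, down to 7.12 ± 0.895 for UTP20, a very large scaffold protein of the small-subunit processome. NCL (nucleolin, 340.4 ± 7.30), FBL (fibrillarin, 319 ± 4.79) and NOP10 (240.4 ± 22.0) followed NPM1. The polymerase subunits POLR1A (18.98 ± 0.579) and POLR1B (10.1 ± 1.63) were near the bottom, at a level above that of 68.4% and 52.2% of all tested genes. NPM1 has many processed pseudogenes, and PPAN overlaps the read-through gene PPAN-P2RY11, so both values are uncertain. SIGM5 counts are not scaled by length and are not ordered here.

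Across comparisons, the 36 genes were called in part under TETi76 in K01, and none was called in SIGM5. TETi76 in K01 raised 3 and lowered 7 of them (10 of 36, 27.8%), beside 23.3% of all 12535 genes tested, 9.61% higher and 13.7% lower. Given with ascorbate and set against ascorbate alone, TETi76 raised 2 and lowered 15 (17 of 36, 47.2%), beside 30.7% of all genes, 12.9% higher and 17.8% lower. K18 differed from K01 in 2 genes upward and 7 downward (9 of 36, 25.0%), beside 15% of all genes, 6.84% higher and 8.2% lower. In SIGM5 edgeR called 0 of 36, with 5 at an unadjusted p under 0.05 and 0 by DESeq2, beside 4.13% of 11340 genes, 2.58% higher and 1.54% lower. Of these 11340 genes 1893 had an unadjusted p under 0.05 by edgeR. A call is a Benjamini-Hochberg adjusted p under 0.05 over all genes tested, by limma in K562 and by edgeR's quasi-likelihood test in SIGM5. These shares are descriptions, and whether the 36 genes differ from the rest was not tested.

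**Figure D1:**
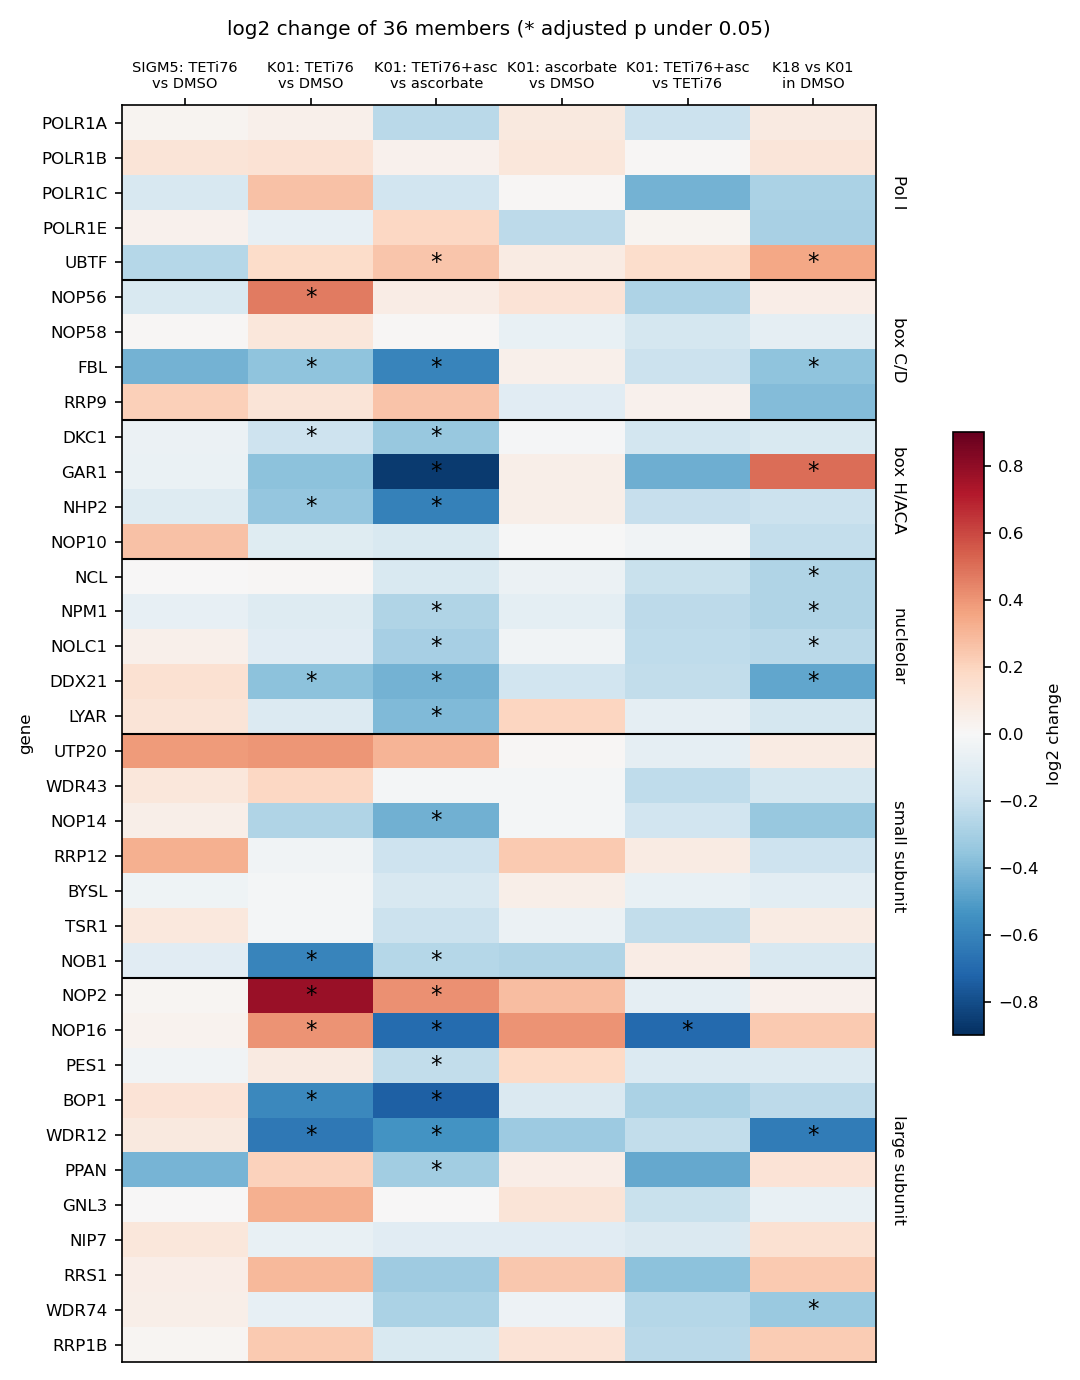
Fitted log2 change of each of the 36 genes (rows, grouped by role) in 6 comparisons (columns), blue for lower and red for higher, with a star where the adjusted p was under 0.05. The SIGM5 column holds no star, the TETi76 column of K01 holds 10, and the column for TETi76 with ascorbate against ascorbate holds 17, of which 15 are blue.

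The split between higher and lower calls depended on how the K562 libraries were scaled. FPKM sums were 847868 and 860691 in K01 DMSO and 840154 and 868586 with ascorbate. They were 825486 and 805510 with TETi76, 774192 and 785649 with both, and 759929 and 755857 in K18. After quantile normalization the calls became 8 higher and 6 lower for TETi76 alone, 4 and 8 for TETi76 with ascorbate, and 2 and 4 for K18. Over all 12535 genes they were then 1428 higher and 1385 lower, 1787 and 1846, and 833 and 827. The shares called were then 38.9% beside 22.4% of all genes, 33.3% beside 29%, and 16.7% beside 13.2%. The gap to all genes was thus wider than in the main scaling for TETi76 alone and narrower in the other comparisons. The median log2 change of the 36 genes moved from -0.02 to 0.04, from -0.21 to -0.10 and from -0.14 to -0.04 in these comparisons, in which the median of all genes stayed within 0.02 of 0. Of the 10 calls under TETi76 alone, 7 held under every alternative run (NOP56, FBL, NHP2, DDX21, NOB1, NOP2 and BOP1). Of the 17 with ascorbate, 7 did (FBL, GAR1, NHP2, NPM1, DDX21, NOP16 and BOP1), and of the 9 in K18, 1 did (DDX21). Quantile normalization removed the call of DKC1 under TETi76 alone and those of NPM1, NOLC1 and WDR74 in K18. With ascorbate it removed those of DKC1, NOLC1, LYAR, NOP14, NOB1, PES1 and PPAN. Without K18 replicate 1 the lower calls in K18 went from 7 to 4, and without K18 replicate 2 to 3.

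Among the polymerase I genes, UBTF alone was called, and it was higher. UBTF, the upstream binding factor that opens ribosomal DNA for polymerase I, stood at 33.8 and 32.6 FPKM in K01 DMSO, 39.5 and 35.3 with TETi76, 36.5 and 33.6 with ascorbate, 41.5 and 42.2 with both, and 42.1 and 43.1 in K18. The K18 libraries and those with both compounds lay above all others. The rise was log2 0.35 in K18 (SE 0.08, adjusted p = 0.0224) and 0.25 for TETi76 with ascorbate against ascorbate (SE 0.08, adjusted p = 0.0494). Neither call survived leaving out any 1 of its 4 libraries: the adjusted p was then 0.0742 to 0.126 in K18, and 0.065 to 0.218 in the other comparison.

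The other four genes of this group were called in none of the K562 comparisons with all libraries in the fit. POLR1E, the most abundant of the 5 in K01 DMSO, read 61.3 and 48.8 FPKM there, 52.2 and 51.4 with TETi76, 46.7 and 45.8 with ascorbate, 48.9 and 57.0 with both, and 45.9 and 43.1 in K18. Its DMSO replicates were further apart than those of any other K562 group, and without K01 DMSO replicate 2 its difference in K18 was called (log2 -0.45, adjusted p = 0.0451, against -0.29 and 0.116 with all libraries). POLR1C, a subunit that polymerase I shares with polymerase III, ranged from 35.7 FPKM in a K18 library to 55.1 under TETi76. POLR1A, the catalytic subunit, was at log2 -0.24 for TETi76 with ascorbate against ascorbate and was called only without ascorbate replicate 2 (log2 -0.38, adjusted p = 0.0482).

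In the box C/D snoRNP, which methylates ribosomal RNA, 2 core proteins moved in opposite directions under TETi76. FBL, the methyltransferase, stood at 315 and 322 FPKM in K01 DMSO, 256 and 240.4 with TETi76, 320.1 and 338 with ascorbate, 203 and 232 with both, and 244 and 252 in K18. Every library with TETi76 and both K18 libraries lay below the 4 K01 libraries without it. FBL fell by 0.36 on the log2 scale under TETi76 (SE 0.07, adjusted p = 0.00544), by 0.60 with ascorbate in both arms (SE 0.07, adjusted p = 0.000237) and by 0.36 in K18 (SE 0.07, adjusted p = 0.00786). The K18 call ended without K01 DMSO replicate 2 (adjusted p = 0.0521) or without K18 replicate 1 (adjusted p = 0.0608).

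NOP56, a scaffold of the same particle, rose under TETi76. It stood at 88.3 and 93.9 FPKM in K01 DMSO, 132 and 121 with TETi76, 102 and 96.8 with ascorbate, 107 and 102 with both, and 96.2 and 93.8 in K18. The TETi76 libraries were the highest, and with ascorbate in both arms the groups overlapped. The rise was log2 0.47 under TETi76 (SE 0.07, adjusted p = 0.00142), and the difference with ascorbate in both arms was log2 0.07 (adjusted p = 0.508). NOP58, the paired scaffold, stayed between 84.7 and 104 FPKM in all 10 libraries and was not called. RRP9, which binds the U3 snoRNA, was not called either, with log2 -0.39 in K18 (adjusted p = 0.0648).

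The box H/ACA snoRNP pseudouridylates ribosomal RNA and includes telomerase-associated proteins. It was lower under TETi76 in 3 of its 4 proteins when ascorbate was present, beside 17.8% of all genes. GAR1 stood at 68.3 and 73.2 FPKM in K01 DMSO, 53.4 and 55.7 with TETi76, 86.8 and 62.0 with ascorbate, 39.4 and 40.5 with both, and 100.3 and 101 in K18. The libraries with both compounds were the lowest and those of K18 the highest, and neither group overlapped another. GAR1 fell by 0.86 for TETi76 with ascorbate against ascorbate (SE 0.13, adjusted p = 0.00113), and its difference under TETi76 alone was log2 -0.37 (SE 0.13, adjusted p = 0.0685). In K18 it rose by log2 0.50 (SE 0.13, adjusted p = 0.0291), a call that ended when any 1 of the 4 libraries was left out (adjusted p from 0.0883 to 0.14).

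NHP2, which binds the guide RNA, stood at 196 and 187 FPKM in K01 DMSO, 156 and 145 with TETi76, 204 and 194 with ascorbate, 126 and 134 with both, and 170.0 and 166 in K18. Libraries with TETi76 were the 4 lowest of the 10. NHP2 fell by 0.35 under TETi76 (SE 0.06, adjusted p = 0.00386) and by 0.61 with ascorbate in both arms (SE 0.06, adjusted p = 0.000125). DKC1, dyskerin, the pseudouridine synthase, ranged from 90.8 to 121 FPKM. It fell by 0.19 (SE 0.06, adjusted p = 0.0451) and by 0.34 (SE 0.06, adjusted p = 0.00245) in the same comparisons, and the first of these calls ended when any 1 of its 4 libraries was left out (adjusted p from 0.0597 to 0.23).

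NOP10, the smallest protein of the particle and its most abundant mRNA, was not called. It read 256 and 225 FPKM in K01 DMSO, 219 and 226 with TETi76, 243 and 236 with ascorbate, 222 and 214 with both, and 209 and 205 in K18. The K18 libraries were the lowest of the 10 (log2 -0.21, SE 0.06, adjusted p = 0.0567), and the call was made without K01 DMSO replicate 2 (log2 -0.31, adjusted p = 0.0225).

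**Figure D2:**
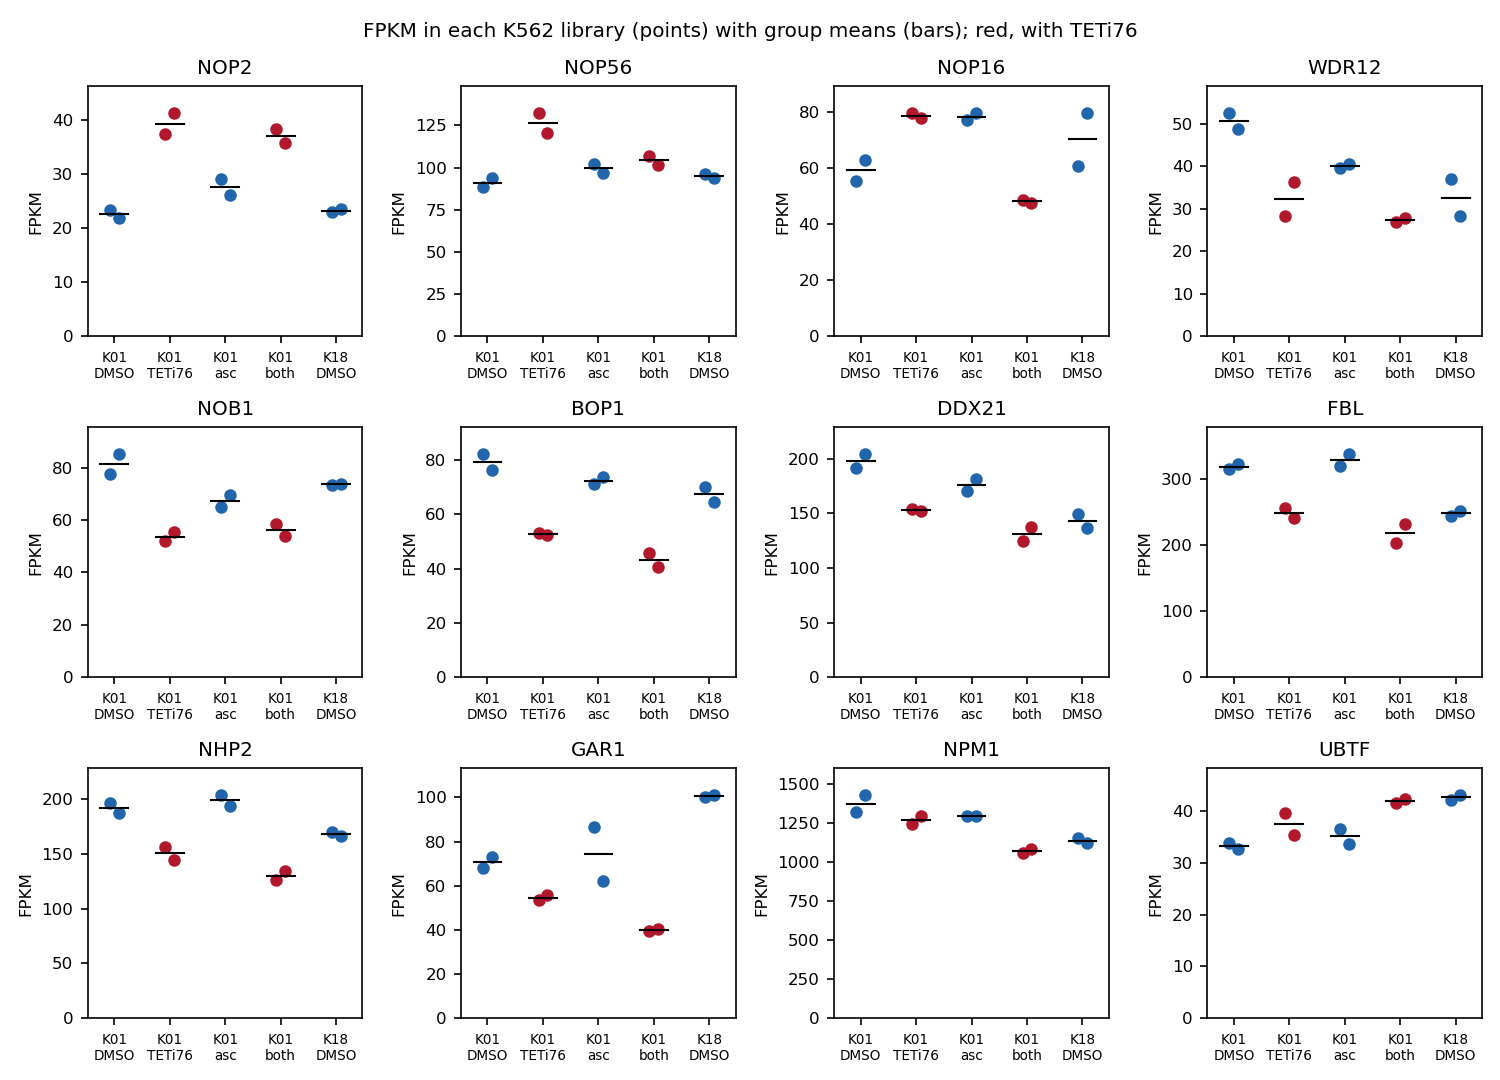
FPKM (vertical axes, from 0) of 12 of the 36 genes in each of the 10 K562 libraries (points) with the mean of each group of 2 (bars), red for libraries with TETi76. For FBL, NHP2, BOP1, GAR1, DDX21, NOB1 and WDR12 all 4 red points lie below all 4 K01 points without TETi76. For NOP2 all 4 lie above them, and for NOP16 the red pairs lie on opposite sides of K01 DMSO.

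In the main scaling, most general nucleolar proteins were called lower in K18 and, with ascorbate in both arms, under TETi76. In each of these comparisons 4 of the 5 fell, beside 8.2% of all genes in K18 and 17.8% with ascorbate in both arms. Under TETi76 alone 1 did, beside 13.7% of all genes. After quantile normalization NOLC1 was called neither in K18 nor with ascorbate in both arms. NPM1 was then not called in K18, and LYAR not with ascorbate in both arms. DDX21, an RNA helicase that couples polymerase I transcription to processing, stood at 192 and 205 FPKM in K01 DMSO, 154 and 152 with TETi76, 170.3 and 182 with ascorbate, 125 and 137 with both, and 149 and 137 in K18. All libraries with TETi76 and both K18 libraries lay below the K01 libraries without it. DDX21 fell by 0.37 under TETi76 (SE 0.07, adjusted p = 0.00566), by 0.42 with ascorbate in both arms (SE 0.07, adjusted p = 0.00207) and by 0.47 in K18 (SE 0.07, adjusted p = 0.00254).

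NPM1, which shuttles ribosomal particles and is the most abundant of the 36, read 1316 and 1428 FPKM in K01 DMSO, 1240 and 1290 with TETi76, 1290 and 1293 with ascorbate, 1058 and 1085 with both, and 1149 and 1122 in K18. Libraries with both compounds were the lowest, followed by K18. NPM1 fell by 0.27 with ascorbate in both arms (SE 0.05, adjusted p = 0.00244) and by 0.27 in K18 (SE 0.05, adjusted p = 0.00478). Under TETi76 alone it was at log2 -0.12 (adjusted p = 0.103), and was called without K01 DMSO replicate 1 (log2 -0.17, adjusted p = 0.0382).

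NOLC1, a chaperone of snoRNPs, fell by 0.30 with ascorbate in both arms (SE 0.06, adjusted p = 0.006) and by 0.24 in K18 (SE 0.06, adjusted p = 0.0286). LYAR, a nucleolar zinc-finger protein, fell by 0.40 with ascorbate in both arms (SE 0.10, adjusted p = 0.0158). NCL, which binds the ribosomal RNA precursor, fell by 0.27 in K18 (SE 0.05, adjusted p = 0.00482). It kept 296.5 to 349 FPKM in K01, where it was at log2 0.01 under TETi76 (adjusted p = 0.867). NOLC1 was not called in K18 without any 1 of the 4 libraries (adjusted p from 0.113 to 0.132). NCL was not called without K18 replicate 2 (adjusted p = 0.0508). LYAR lost its call without ascorbate replicate 1 (adjusted p = 0.0755) or 2 (adjusted p = 0.0537), or without replicate 2 of TETi76 with ascorbate (adjusted p = 0.0921).

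Of the 7 small-subunit factors, 1 fell under TETi76 (beside 13.7% of all genes) and 2 fell with ascorbate in both arms (beside 17.8%). In K18 limma called 0, with 1 of 7 at an unadjusted p under 0.05, beside 3681 of all 12535 genes. NOB1, the nuclease that makes the last cut of 18S ribosomal RNA, read 77.5 and 85.3 FPKM in K01 DMSO, 52.0 and 55.3 with TETi76, 65.1 and 69.6 with ascorbate, 58.7 and 54.1 with both, and 73.3 and 73.9 in K18. Libraries with TETi76 were the 4 lowest. NOB1 fell by 0.59 under TETi76 (SE 0.08, adjusted p = 0.000794) and by 0.25 with ascorbate in both arms (SE 0.08, adjusted p = 0.0344). The second call ended without ascorbate replicate 1 (adjusted p = 0.0587) or 2 (adjusted p = 0.163), or without replicate 2 of TETi76 with ascorbate (adjusted p = 0.161).

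NOP14, a processome component, read 47.9 and 46.4 FPKM in K01 DMSO, 39.0 and 38.8 with TETi76, 46.2 and 47.2 with ascorbate, 29.9 and 39.4 with both, and 33.9 and 40.5 in K18. Its 2 libraries with both compounds were far apart, and the lower was the shallowest library. NOP14 fell by 0.43 with ascorbate in both arms (SE 0.13, adjusted p = 0.0286). Without that library, replicate 1, the value was log2 -0.24 (adjusted p = 0.158). The call also ended without ascorbate replicate 1 (adjusted p = 0.0892) or 2 (adjusted p = 0.107). UTP20 (6.49 to 10.6 FPKM over the 10 libraries), WDR43, RRP12, BYSL and TSR1 were called in none of the K562 comparisons. UTP20 was at log2 0.40 under TETi76 (SE 0.15, adjusted p = 0.0848), the widest difference among those uncalled there.

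Large-subunit factors held the largest rise (NOP2) and the largest fall (WDR12) under TETi76. NOP2, a methyltransferase of 28S ribosomal RNA, read 23.4 and 21.8 FPKM in K01 DMSO, 37.4 and 41.4 with TETi76, 29.2 and 26.1 with ascorbate, 38.4 and 35.8 with both, and 22.99 and 23.6 in K18. The 4 libraries with TETi76 were the highest. NOP2 rose by log2 0.77 under TETi76 (SE 0.09, adjusted p = 0.000512) and by 0.41 with ascorbate in both arms (SE 0.09, adjusted p = 0.0098). The second call ended without ascorbate replicate 2 (adjusted p = 0.0652) or without replicate 1 of TETi76 with ascorbate (adjusted p = 0.0539).

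BOP1 and WDR12 form the PeBoW complex with PES1, which is needed to process the 28S and 5.8S precursors. BOP1 read 82.3 and 76.4 FPKM in K01 DMSO, 53.1 and 52.2 with TETi76, 71.1 and 73.7 with ascorbate, 45.8 and 40.5 with both, and 70.2 and 64.6 in K18. BOP1 was lowest in the 4 TETi76 libraries, and it fell by 0.58 under TETi76 (SE 0.08, adjusted p = 0.00119) and by 0.73 with ascorbate in both arms (SE 0.08, adjusted p = 0.000207).

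WDR12 read 52.5 and 48.7 FPKM in K01 DMSO, 28.4 and 36.2 with TETi76, 39.6 and 40.6 with ascorbate, 27.0 and 27.7 with both, and 36.9 and 28.3 in K18. The K01 DMSO libraries were the highest of the 10. WDR12 fell by 0.64 under TETi76 (SE 0.14, adjusted p = 0.01), by 0.54 with ascorbate in both arms (SE 0.14, adjusted p = 0.0174) and by 0.63 in K18 (SE 0.14, adjusted p = 0.0158). Its replicates were far apart in the TETi76 and K18 groups. The TETi76 call ended without K01 DMSO replicate 1 (adjusted p = 0.067) or TETi76 replicate 1 (adjusted p = 0.0685), and that with ascorbate without any 1 of its 4 libraries (adjusted p from 0.0545 to 0.0765). The K18 call ended without K01 DMSO replicate 1 (adjusted p = 0.0936) or 2 (adjusted p = 0.0595), or without K18 replicate 2 (adjusted p = 0.116).

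PES1, the third member of that complex, ranged from 49.1 to 62.5 FPKM and was at log2 0.08 under TETi76 (adjusted p = 0.494). With ascorbate in both arms it was just past the threshold (log2 -0.22, adjusted p = 0.0497), a call that ended under every alternative run (adjusted p from 0.0504 to 0.655).

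NOP16, which acts early in large-subunit assembly, moved in opposite directions under TETi76 without and with ascorbate. It read 55.6 and 62.9 FPKM in K01 DMSO, 79.7 and 77.9 with TETi76, 77.2 and 79.6 with ascorbate, 48.7 and 47.7 with both, and 60.8 and 79.8 in K18. Each compound alone stood above DMSO, and both together stood below it, with no overlap. NOP16 rose by log2 0.41 under TETi76 (SE 0.12, adjusted p = 0.0319) and fell by 0.69 with ascorbate in both arms (SE 0.12, adjusted p = 0.00207). The rise was not called without any 1 of its 4 libraries (adjusted p from 0.0527 to 0.176).

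The remaining large-subunit factors were mostly uncalled. PPAN fell by 0.31 with ascorbate in both arms (SE 0.10, adjusted p = 0.0345). The overlapping PPAN-P2RY11 went the other way, higher at 9.58 and 9.12 FPKM with both compounds against 6.07 and 2.17 with ascorbate. Its part in the PPAN value was not tested. The PPAN call ended without ascorbate replicate 2 (log2 -0.21, adjusted p = 0.202), or without replicate 1 (adjusted p = 0.0955) or 2 (adjusted p = 0.102) of TETi76 with ascorbate. WDR74 fell by 0.34 in K18 (SE 0.10, adjusted p = 0.0469), and not without K01 DMSO replicate 2 (log2 -0.22, adjusted p = 0.276), K18 replicate 1 (adjusted p = 0.0607) or K18 replicate 2 (log2 -0.24, adjusted p = 0.27). GNL3, nucleostemin, was at log2 0.32 under TETi76 (SE 0.11, adjusted p = 0.063). RRS1, RRP1B and NIP7 were called in none of the K562 comparisons. RRS1 was called with ascorbate in both arms once ascorbate replicate 1 was left out (log2 -0.56, adjusted p = 0.024, against -0.32 and 0.155).

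Proteins that work in fixed assemblies were also compared as ratios of mRNA within a library, which do not depend on scaling between libraries. The pairs were chosen after the values had been seen, so they are given with no test. BOP1 over PES1 was 1.48 in both K01 DMSO libraries, 0.906 and 0.955 with TETi76, 1.20 and 1.18 with ascorbate, 0.914 and 0.755 with both, and 1.43 and 1.32 in K18. FBL over NOP56 was 3.57 and 3.43 in K01 DMSO, 1.94 and 1.99 with TETi76, 3.13 and 3.49 with ascorbate, 1.91 and 2.28 with both, and 2.53 and 2.69 in K18. For both ratios the 4 libraries with TETi76 were the lowest of the 10. GAR1 over DKC1 was 0.927 and 0.960 in K18, against 0.563 and 0.646 in K01 DMSO, and was lowest with both compounds, at 0.433 and 0.437.

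**Figure D3:**
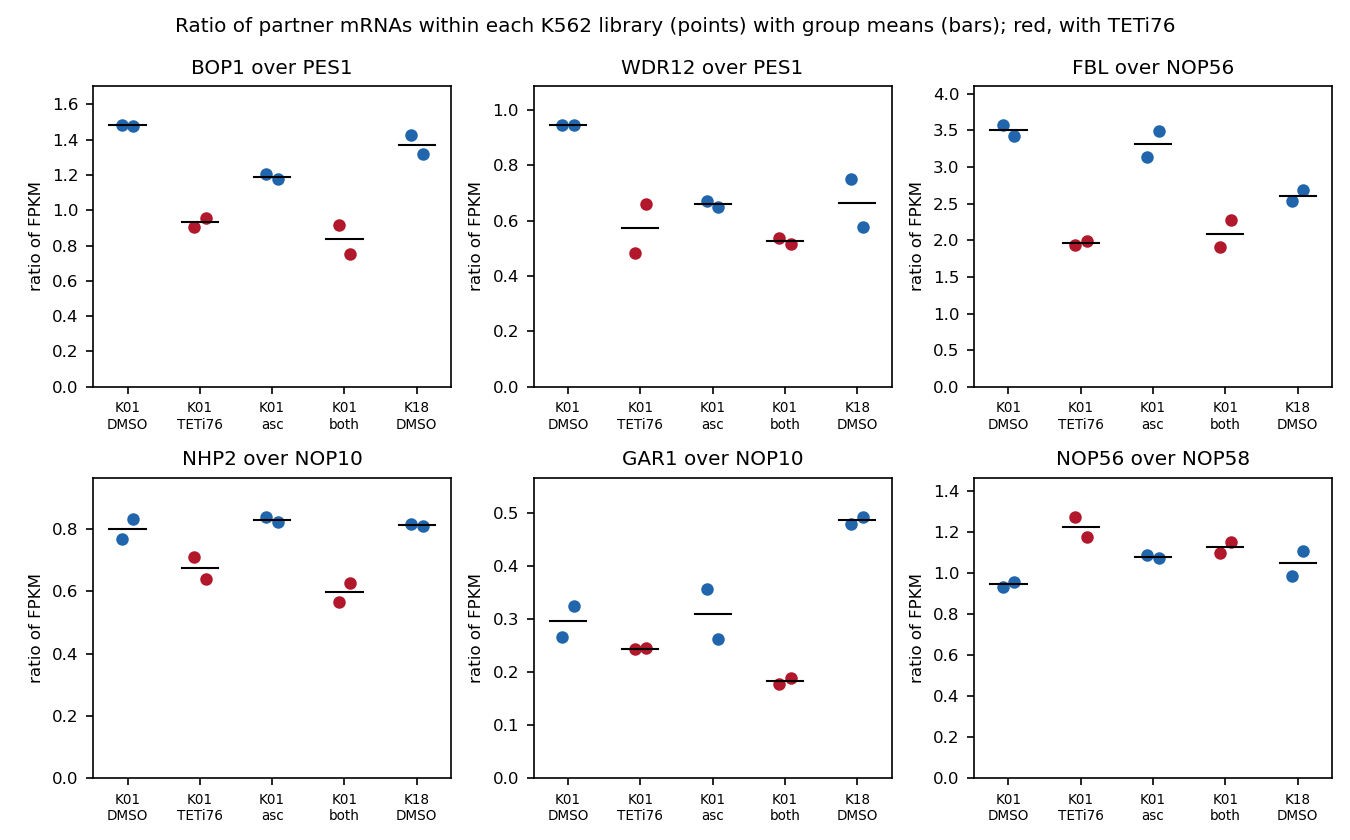
Ratio of the FPKM of 6 pairs of partner mRNAs (vertical axes, from 0) in each K562 library (points), with group means of 2 libraries (bars), red for libraries with TETi76. The red points are the lowest for BOP1 over PES1 and FBL over NOP56, where they stay at or below 0.955 and 2.28, and GAR1 over NOP10 is highest in K18.

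TETi76 was tested in K01 both without and with ascorbate, in sets of 4 libraries that share none. Both comparisons came from a single fit of all K562 libraries and share its estimate of the spread, so their calls are not independent. Of the 10 genes called without ascorbate, 9 were also called with it, which is 9 of the 17 called there. Of all genes 23.3% and 30.7% were called in these comparisons, and the overlap over all genes was not counted. In 8 of the 9 the direction was the same (NOP2 higher, and BOP1, DDX21, DKC1, FBL, NHP2, NOB1 and WDR12 lower), and in NOP16 it was opposite. Over all 36 genes 26 had the same sign, with a correlation of 0.648 across genes, which share their libraries and so are not independent.

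**Figure D4:**
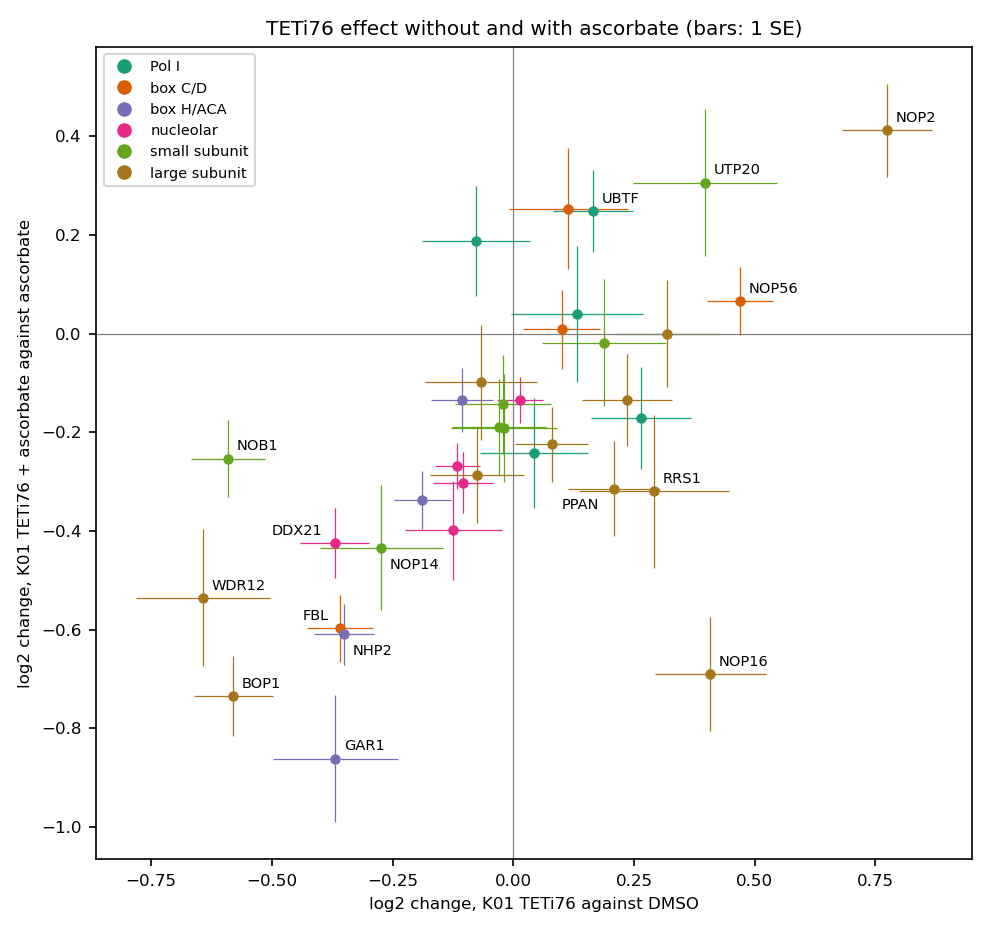
Fitted log2 change under TETi76 in K01 without ascorbate (horizontal) against that with ascorbate in both arms (vertical) for the 36 genes, coloured by role, with bars of 1 SE. NOP2 lies highest, GAR1 lowest, and NOP16 lies at lower right (0.41 against -0.69).

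Ascorbate was set against its absence both on DMSO and on TETi76. Added to DMSO, it called 0 of 36 genes by limma, with 7 at an unadjusted p under 0.05, beside 0.479% of all genes called, and it called 0 under each alternative run. Over all 12535 genes 1499 had an unadjusted p under 0.05. The median log2 change of the 36 was 0.01, and NOP16 (0.40, SE 0.12, adjusted p = 0.217) and WDR12 (-0.33, SE 0.14, adjusted p = 0.387) marked the ends of their range. Added to TETi76, it lowered 1 gene of 36, NOP16 (log2 -0.70, SE 0.12, adjusted p = 0.0376), beside 0.734% of all genes. The median was log2 -0.20, against 0.00 for all genes, and 30 of the 36 were below 0, including all 11 large-subunit factors and all 5 general nucleolar proteins.

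The interaction asks whether TETi76 acted differently with ascorbate present. It was called for NOP16 alone (log2 -1.10, SE 0.16, adjusted p = 0.025), beside 0.63% of all genes, 0.279% higher and 0.351% lower. The median over the 36 genes was log2 -0.17, against 0.00 for all genes, and 31 were below 0. Next in size were RRS1 (log2 -0.61, adjusted p = 0.273) and PPAN (log2 -0.52, adjusted p = 0.152), neither of which was called. For NOP16 both calls depended on every library, and the calls over all genes also fell when any 1 was left out. Leaving out any 1 gave an adjusted p of 0.0901 to 0.164 for ascorbate added to TETi76, and of 0.0525 to 0.0954 for the interaction, with the log2 value of the interaction between -1.19 and -1.01. TETi76 with ascorbate replicate 1 had the fewest reads of the 10 libraries, and without it the interaction was log2 -1.11.

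K18 and K01 with both compounds are given side by side, since each has its own controls. These comparisons too share the estimate of the spread from a single fit. Of the 9 genes called in K18, 7 were called for TETi76 with ascorbate against ascorbate, which is 7 of 17 there. Of all genes 15% and 30.7% were called in these comparisons, and here too the overlap over all genes was not counted. DDX21, FBL, NOLC1, NPM1 and WDR12 were lower in both and UBTF was higher in both, while GAR1 was higher in K18 and lower with the compounds. Over all 36 genes 24 had the same sign, with a correlation of 0.097. NCL and WDR74 were called in K18 and not for the compounds (log2 -0.13, adjusted p = 0.0566, and log2 -0.29, adjusted p = 0.0517). K18 and TETi76 alone were each set against the same K01 DMSO libraries, and so no overlap between them is given.

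In SIGM5 none of the 36 genes passed the threshold with all 4 libraries. The median log2 change was 0.03, against 0.00 for all genes, and the range was -0.42 to 0.38. The 5 genes with an unadjusted p under 0.05 by edgeR, beside 1893 of all 11340 genes, were UBTF, FBL, NOP10, UTP20 and RRP12. Values in every library are given for the 2 with the lowest p, chosen after those were seen. UTP20 read 64.0 and 65.2 CPM (counts scaled by library size) in DMSO and 84.8 and 83.5 CPM with TETi76, without overlap (log2 0.38, SE 0.11, adjusted p = 0.0522). FBL read 686 and 674 CPM in DMSO and 429.8 and 584 CPM with TETi76, lower in both but with its replicates far apart (log2 -0.42, SE 0.12, adjusted p = 0.0704).

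Both stood close to the threshold, and the call depended on which libraries were in the fit. The calls over all genes also rose when a DMSO library was left out and fell when a TETi76 library was. FBL was called without DMSO replicate 1 (adjusted p = 0.00263), DMSO replicate 2 (adjusted p = 0.000458) or TETi76 replicate 2 (log2 -0.66, adjusted p = 0.0275), and with a replicate block (adjusted p = 0.0091). UTP20 was called without DMSO replicate 1 (adjusted p = 0.0396) or 2 (adjusted p = 0.0231). UBTF was called without DMSO replicate 2 (log2 -0.33, adjusted p = 0.0195), and RRP12 without DMSO replicate 1 (log2 0.44, adjusted p = 0.00522). The members rested on 615 counts or more in every SIGM5 library except PPAN, with 55 to 95, whose change (log2 -0.42, SE 0.27, adjusted p = 0.488) is the least precise of the 36.

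The difference between the lines was tested for each gene. It was called for 7 of 36 (19.4%), beside 12% of 9742 genes tested in both lines. The 4 higher in SIGM5 stood beside 7.12% of all genes, and the 3 lower beside 4.91%. TETi76 raised NOP2 and NOP56 in K01, where SIGM5 was at log2 0.02 and -0.14, and the differences (SIGM5 minus K01) were -0.76 (SE 0.14, adjusted p = 0.000523) and -0.61 (SE 0.13, adjusted p = 0.00134). It lowered BOP1, WDR12, DDX21 and NOB1 in K01, where SIGM5 was at log2 0.13, 0.09, 0.14 and -0.10. The differences were 0.71 (SE 0.14, adjusted p = 0.000599), 0.73 (SE 0.18, adjusted p = 0.00836), 0.51 (SE 0.12, adjusted p = 0.00536) and 0.49 (SE 0.14, adjusted p = 0.0151). UBTF stood at log2 -0.26 in SIGM5 and 0.17 in K01, uncalled in each, with a difference of -0.42 (SE 0.13, adjusted p = 0.0301).

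For FBL the difference was not called (-0.06, SE 0.14, adjusted p = 0.825), at log2 -0.42 in SIGM5 and -0.36 in K01. UTP20 likewise stood at 0.38 and 0.40 (difference -0.02, SE 0.19, adjusted p = 0.971). Over all 36 genes 19 had the same sign in the lines, with a correlation of 0.03. For NOP2 and BOP1 the difference held under every alternative run for it, which did not include quantile normalization. Without SIGM5 TETi76 replicate 1 the count of calls fell from 7 to 2, and NOP56 (adjusted p = 0.0968), DDX21 (adjusted p = 0.153), NOB1 (adjusted p = 0.0633), WDR12 (adjusted p = 0.0736) and UBTF (adjusted p = 0.184) were lost. Without K01 TETi76 replicate 1 the higher calls went from 4 to 2, with NOB1 (adjusted p = 0.0566) and WDR12 (adjusted p = 0.0638) lost. NOB1 was also lost without SIGM5 TETi76 replicate 2 (adjusted p = 0.23) or K01 DMSO replicate 2 (adjusted p = 0.0703), and WDR12 without K01 DMSO replicate 1 (adjusted p = 0.0605). UBTF was lost without any 1 of 6 of the 8 libraries (adjusted p from 0.0615 to 0.184) and with a replicate block (adjusted p = 0.0574). The calls of this difference over all genes also fell without a SIGM5 TETi76, K01 DMSO or K01 TETi76 library, and rose without a SIGM5 DMSO library. The lines were deposited in different units and each effect comes from its own fit.

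**Figure D5:**
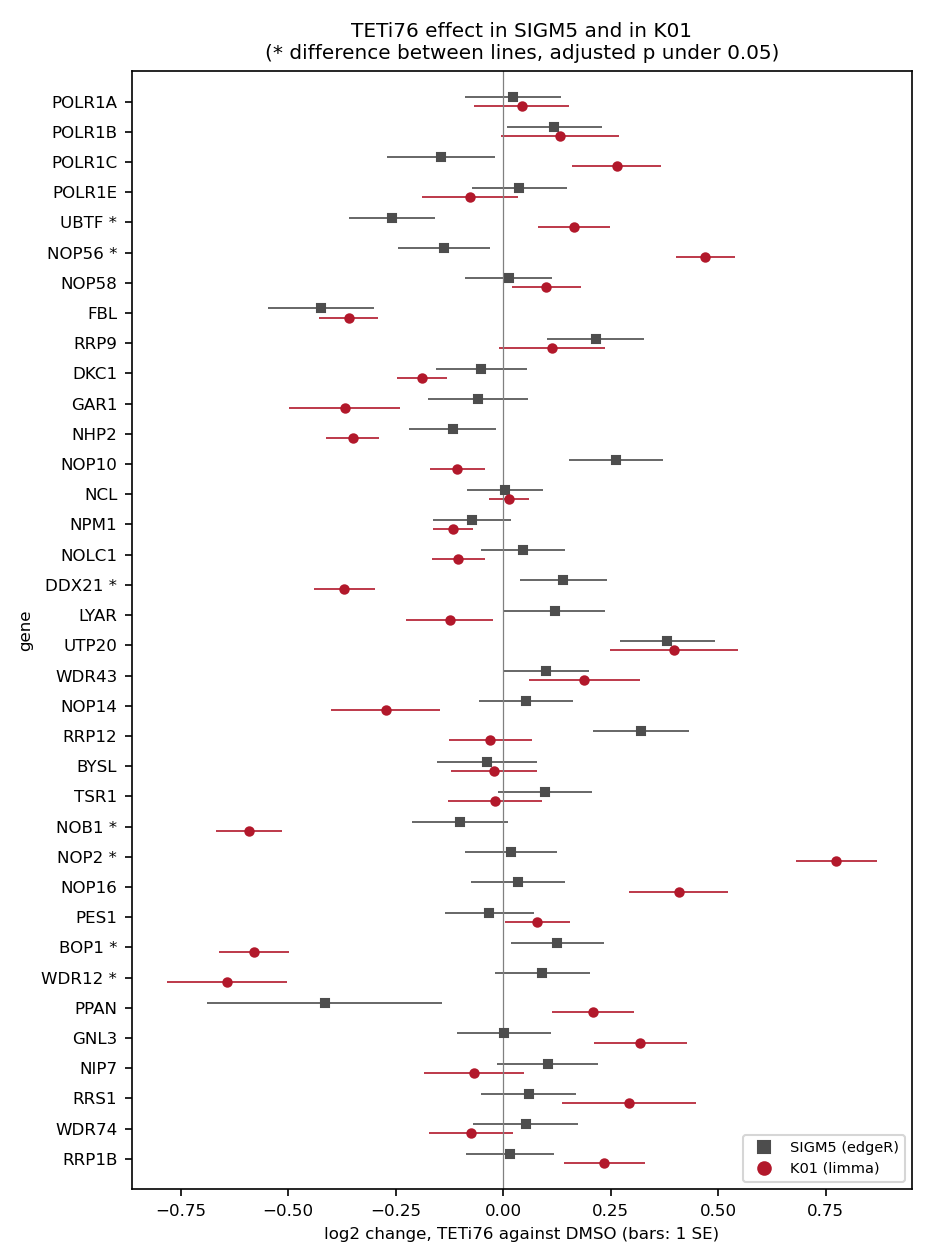
Fitted log2 change under TETi76 (horizontal, with bars of 1 SE) for each of the 36 genes in SIGM5 (grey squares, edgeR) and K01 (red circles, limma), with a star on the 7 genes whose difference between the lines had an adjusted p under 0.05. NOP2 and NOP56 lie to the right in K01 and BOP1, WDR12, NOB1 and DDX21 to the left, while their SIGM5 values lie between -0.14 and 0.14.

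Several of the 36 genes hold genes of small nucleolar or small Cajal body RNAs within their span, on the same strand. Whether these lie in introns was not checked. By GENCODE v29, 9 do: POLR1C, NOP56, NOP58, DKC1, NCL, WDR43, TSR1, PPAN and GNL3. NOP56 and GNL3 hold 5 each. Under TETi76 in K01, 1 host rose (NOP56) and 1 fell (DKC1), with a median of log2 0.19, and of the other 27 genes 2 rose and 6 fell, with a median of -0.08. With ascorbate in both arms 0 rose and 2 fell of the 9 (median -0.13), and 2 rose and 13 fell of the 27 (median -0.25). Over all genes 9.61% rose and 13.7% fell under TETi76, and 12.9% rose and 17.8% fell with ascorbate in both arms. These counts and medians are descriptions, and whether hosts and others differed was not tested.

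The wider pathway was read from 131 other ribosome biogenesis genes, listed separately. Under TETi76 in K01, 20 rose and 12 fell (24.4%, with a median of log2 0.04), close to the 23.3% of all genes. The largest rises were RPP25 (log2 1.34, SE 0.17, adjusted p = 0.000664), a subunit of RNase P and MRP, UTP3 (0.72), TAF1D (0.65), a polymerase I initiation factor, and DDX31 (0.60). The largest falls were WDR18 (log2 -1.19, SE 0.14, adjusted p = 0.000396), RSL24D1 (-0.99), which is a large-subunit factor, TBL3 (-0.61) and RUVBL2 (-0.60). With ascorbate in both arms 9 rose and 28 fell (28.2% beside 30.7% of all genes, median -0.08). Quantile normalization changed these splits to 27 and 8 and to 15 and 15. Over all genes it gave 1428 higher and 1385 lower, and 1787 and 1846. In SIGM5 0 of 123 were called by edgeR or DESeq2, with a median of 0.02. By edgeR 6 had an unadjusted p under 0.05, beside 1893 of all 11340 genes.

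In K18, 6 of the 131 were higher and 12 lower than in K01 (13.7%, beside 15% of all genes). The highest were UTP3 (log2 0.75), POP7 (0.44), SBDS (0.40) and HEATR1 (0.38). The lowest were RPP38 (log2 -0.70), GTPBP4 (-0.68), RSL24D1 (-0.61) and KIAA0020 (-0.52).

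Transcripts of the cytosolic ribosomal proteins themselves, the cargo of this pathway, were for the most part not called, and in K562 the split of the calls depended on scaling. In K01, 0 rose and 23 of 78 fell under TETi76 (29.5% beside 23.3% of all genes, median log2 -0.06). With ascorbate in both arms 0 rose and 21 fell (26.9% beside 30.7%). In K18, 2 were higher and 21 lower (29.5% beside 15%). After quantile normalization these became 5 higher and 12 lower, 7 and 11, and 7 and 3. In SIGM5, 0 rose and 7 of 77 fell (9.09% beside 4.13%). There 38 had an unadjusted p under 0.05 by edgeR, beside 1893 of all 11340 genes. The median of the 77 was log2 -0.21, whereas the 36 assembly genes there had a median of 0.03.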

How the data were processed

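Polyadenylated RNA was measured in 14 libraries of SIGM5 and K562 cells. The SIGM5 values are raw read counts per gene, as the authors deposited them. The K562 values are FPKM by the authors, although the deposited table is named as counts, and FPKM cannot be told apart from RPKM. The submitters' processing notes name STAR, hg19 and the packages edgeR 3.24.3 and limma 3.38.3, with no role for each. The counter is not given in the sources used here. Genes were identified by symbol, and 26 K562 entries without a gene name (at most 0.0657% of a library's FPKM sum) and 2272 short RNA entries were left out. The values of the single files equalled the matrix columns in all 14 libraries.

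For SIGM5, edgeR 4.0.16 was run on 11340 genes kept by filterByExpr, with TMM scaling and its quasi-likelihood test, and DESeq2 1.42.0 was an alternative. For K562, a single limma 3.58.1 fit over all 5 groups used log2(FPKM + 1) of the 12535 genes at 1 FPKM or more in at least 2 libraries, with the trend and robust options. A fold change on this scale is understated for genes near 1 FPKM. CPM values use TMM library sizes. The difference between lines is that of the separately fitted changes, with Satterthwaite degrees of freedom. All tests are two-sided, p-values were adjusted over all genes by Benjamini-Hochberg with a threshold of 0.05, and scripts were tested on simulated data. The reads of a K562 library relative to another were taken from the commonest ratio of values under 0.15 FPKM, an approximation, since totals were not used. Alternatives changed the scaling, filter, pseudocount, groups in the fit and pairing, and left out each library.

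The 36 members and the other lists were chosen with earlier results of these data known. By rule, every library is given for members called in K562 with an absolute log2 change of at least 0.4 and for the most abundant of each role, and up to 4 other biogenesis genes per direction are named.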

Additional observations from a re-analysis of the deposited data

Results flagged for a closer look

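The following results were singled out because the effect of TETi76 differed between 2 settings by a test of the difference itself. Between K01 with and without ascorbate, NOP16 differed by log2 -1.10 (limma interaction, adjusted p = 0.025). Between the lines, the difference of SIGM5 minus K01 was log2 -0.76 for NOP2, -0.61 for NOP56 and -0.42 for UBTF. It was log2 0.73 for WDR12, 0.71 for BOP1, 0.51 for DDX21 and 0.49 for NOB1. The 7 line differences compare a count table with an FPKM table made separately.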

How the results depend on the processing

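No called member changed sign under any alternative run. For TETi76 in SIGM5, where 0 members were called, 1 was higher and 1 lower with no filter on low counts. Higher calls under TETi76 in K01 went from 3 to 8 with quantile normalization and to 5 with only the groups compared in the fit. With ascorbate in both arms they went from 2 to 1 with no filter, to 4 with quantile normalization, and to 1 with only the groups compared, and lower calls from 15 to 8 with quantile normalization. For ascorbate added to TETi76 the 1 lower call went to 0 with no filter, to 2 with quantile normalization and to 0 with only the groups compared, and for the interaction the 1 lower call went to 0 with no filter. In K18 higher calls went from 2 to 1 with no filter, and lower calls from 7 to 4 with quantile normalization.

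The replicate block, with the replicate number as a covariate, gave 1 lower member (FBL) in SIGM5 and 1 higher member in place of 2 for TETi76 with ascorbate. It changed the other counts by 1.5 times or less, the most being from 3 to 2 lower for the difference between lines. The replicate deviations of the paired groups correlated at -0.164 in SIGM5 and between -0.022 and 0.052 in K562, so the numbers were not taken to pair the samples. A crossed pairing in SIGM5, chosen after seeing the data, gave 3 higher and 2 lower members.

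Leaving out each library in turn gave 0 to 2 higher and 0 to 2 lower members in SIGM5, 2 to 2 higher and 5 to 6 lower for TETi76 in K01, and 0 to 2 higher and 10 to 11 lower with ascorbate in both arms. It gave 0 to 0 lower for ascorbate added to TETi76 and for the interaction, 0 to 1 higher and 3 to 5 lower in K18, and 1 to 5 higher and 1 to 3 lower for the difference between lines. The lone library left in a group is assumed to vary like the others. In every K562 comparison the calls over all genes also fell when a library was left out. In SIGM5 they rose without a DMSO library and fell without a TETi76 library. For the difference between lines they rose without a SIGM5 DMSO library. They fell there without a SIGM5 TETi76, K01 DMSO or K01 TETi76 library. With 2 libraries a group, small changes of low genes such as POLR1B and UTP20 could not be resolved, and the shallowest library lies in the group with both compounds.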
